A study of Homo sapiens with 4 samples.

Results

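Nucleotide synthesis and salvage enzymes were examined as a set of 37 genes, taken by gene symbol from the 20263 genes of the count table. All 37 mapped to a human Ensembl identifier in the table, and all 37 passed the filter on low counts. They were placed in 5 classes: 8 genes of deoxynucleotide (dNTP) production and control, 6 of pyrimidine synthesis, 11 of purine synthesis, 7 of salvage and uptake, and 5 of nucleotide interconversion. The cells were MDA-MB-231, an established human breast cancer line of the triple-negative type that carries mutant p53. Control cells received the vehicle DMSO. Treated cells received RB-BC, which the series title describes as derived from the CDK4/6 inhibitor ribociclib, and both groups were grown in DMEM with 10% serum and antibiotics and profiled at 24 h by mRNA sequencing with 2 libraries each. No source used here states the dose, and the treatment text names the compound Rib_CA, so that its identity rests on the sample titles.

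A dividing cell needs a supply of dNTPs for each round of DNA copying. Ribonucleotide reductase makes them from ribonucleotides, thymidylate synthase and the thymidine kinases supply the thymidine branch, and the ribonucleotides themselves come from de novo pyrimidine and purine synthesis or from salvage of free bases and nucleosides. Several of these genes, among them RRM2, TYMS and TK1, are known for transcription that peaks around S phase and for control by E2F factors, which the RB protein restrains when CDK4 and CDK6 are inhibited. The purine pathway and CAD are known as targets of MYC.

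The library totals ran from 34774542 to 42786422 counts. The share of counts from mitochondrially encoded genes was 21.7% in DMSO 2 and between 8.68% and 10.3% in the other libraries. The line's mesenchymal markers were all present, with VIM at 124373 to 239563 counts, whereas the estrogen receptor gene ESR1 had 6 to 23 counts and the T cell marker CD3E had 0 in every library. The 37 genes together took 0.381% and 0.301% of the counts in the DMSO libraries and 0.318% and 0.317% in the RB-BC libraries. These are shares of all counts, with the mitochondrially encoded genes included. Genes were compared with edgeR's quasi-likelihood test over all 13744 genes that passed the filter, at a Benjamini-Hochberg adjusted p under 0.05. Levels are TMM-scaled CPM, that is, the gene's reads relative to the scaled size of its library. On this scale the 37 genes summed to 3519 and 3391 CPM in DMSO and to 3136 and 3091 CPM in RB-BC. Each log2 fold change compares RB-BC with DMSO and carries a standard error (SE). No label says that the replicates were separate cultures, so these p-values measure the spread between libraries, which may be technical.

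After RB-BC, 3 of 8 dNTP genes, 3 of 6 pyrimidine genes and 1 of 11 purine genes were lower, and the AMP deaminase AMPD3 was 5.34-fold higher. Of the 37 genes, 8 fell (RRM2, RRM1, TYMS, CAD, CTPS1, UMPS, PFAS and TK1) and 2 rose (AMPD3 and GUK1). Among all genes tested, 7.53% fell and 8.58% rose (16.1% called in either direction), against 21.6% and 5.41% of the nucleotide enzymes. In counts 1035 genes fell and 1179 rose, and with library totals alone as the scaling 415 fell and 790 rose. The median log2 fold change of the 37 was −0.20, beside a median of −0.0016 over all genes tested. The RB-BC libraries lay below both DMSO libraries for 19 members and above both for 9, and the groups overlapped for the remaining 9. Over all genes tested these shares were 32.1% below and 33.1% above, 65.2% in either direction.

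The classes differed in their summed levels. The 8 dNTP genes summed to 878 CPM in DMSO 1 and 828 CPM in DMSO 2, and to 428 CPM in RB-BC 1 and 447 CPM in RB-BC 2. Pyrimidine genes summed to 395 and 341 CPM in the DMSO libraries and to 228 and 249 CPM in the RB-BC libraries. Purine synthesis genes summed to 1202 and 1191 CPM in DMSO and to 1129 and 1156 CPM in RB-BC. This sum is close to level, but it includes IMPDH2, at 297 and 325 CPM in DMSO and 422 and 379 CPM in RB-BC. Of the 11 purine genes, 8 had a log2 fold change below 0. Salvage genes summed to 475 and 492 CPM against 506 and 504 CPM. Interconversion genes summed to 569 and 538 CPM in DMSO and to 845 and 736 CPM in RB-BC. NME2, whose values are uncertain as stated below, gave 350 and 321 CPM of this in DMSO and 473 and 415 CPM in RB-BC. The class sums are weighted to the genes with most counts and were not tested. By gene, the median log2 fold change was −0.46 for the dNTP class (3 of 8 fell), −0.61 for pyrimidine synthesis (3 of 6 fell), −0.23 for purine synthesis (1 of 11 fell), 0.24 for salvage and uptake (1 of 7 fell) and 0.41 for interconversion (2 of 5 rose).

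**Figure D1:**
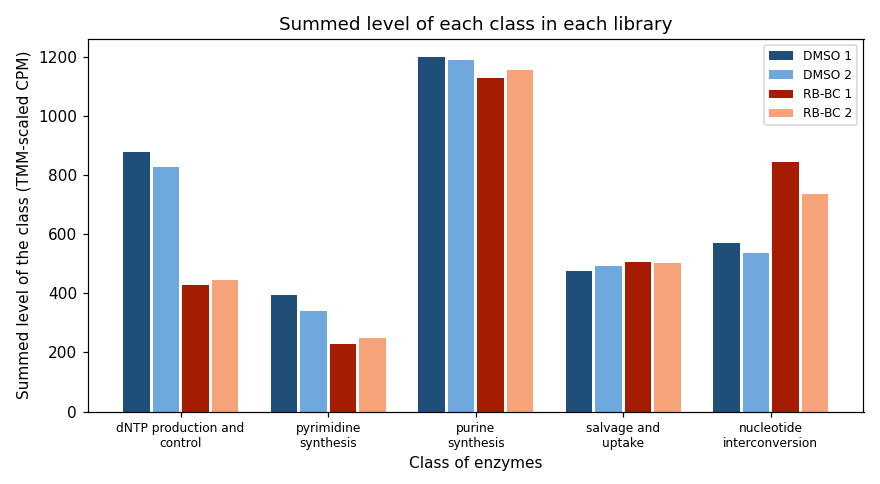
Summed TMM-scaled CPM (vertical axis, from 0) of the genes in each class, with 1 bar for each of the 4 libraries. The dNTP bars drop from 878 and 828 CPM in DMSO to 428 and 447 CPM in RB-BC, while the purine bars stay between 1129 and 1202 CPM. The purine bars include IMPDH2, at 297 and 325 CPM in DMSO and 422 and 379 CPM in RB-BC.

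Both subunits of the S-phase ribonucleotide reductase fell. RRM2, which encodes the small subunit that is made in S phase and broken down in mitosis, stood at 215 and 238 CPM in DMSO 1 and DMSO 2 and at 66.8 and 69.0 CPM in RB-BC 1 and RB-BC 2. The groups were far apart and the RB-BC libraries nearly equal. The log2 fold change was −1.74 ± 0.14 (SE), a 3.34-fold lower level (edgeR adjusted p = 0.00606). RRM1, the large catalytic subunit, had 272 and 220 CPM in DMSO against 108 and 117 CPM in RB-BC, a log2 fold change of −1.13 ± 0.17 (edgeR adjusted p = 0.0143). RRM2B encodes the alternative small subunit that p53 can induce and that serves cells outside S phase. Its levels were 31.7 and 21.1 CPM in DMSO and 18.6 and 27.6 CPM in RB-BC, so the groups overlapped and the gene did not pass (−0.19 ± 0.28, edgeR adjusted p = 0.648). RRM2 therefore had 6.78 and 11.3 counts for each count of RRM2B in the DMSO libraries and 3.60 and 2.50 in the RB-BC libraries.

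Thymidylate synthase, which methylates dUMP to dTMP, was the other dNTP enzyme that fell. TYMS had 158 and 182 CPM in DMSO and 84.8 and 86.0 CPM in RB-BC, a 1.99-fold lower level (log2 fold change −0.99 ± 0.15, edgeR adjusted p = 0.0144). In the GENCODE annotation 967 of the 2470 exon bases of TYMS lie opposite exons of ENOSF1, and no source used here states whether the counting used strand. ENOSF1 had 731 to 923 counts in the 4 libraries, against 3677 to 6101 for TYMS. DTYMK, the kinase that carries dTMP to dTDP, was at 40.2 and 31.8 CPM in DMSO and 29.8 and 24.9 CPM in RB-BC and did not pass (−0.40 ± 0.19).

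The enzymes that clear or limit dNTPs did not pass the test. DUT, which hydrolyses dUTP and so keeps uracil out of DNA, had 50.4, 44.2, 44.1 and 44.4 CPM in DMSO 1, DMSO 2, RB-BC 1 and RB-BC 2, a nearly flat series. GENCODE lists 8 pseudogenes named after DUT, which can share its reads. Other members have named pseudogenes too, among them RRM2 with 3, TYMS with 2 and PAICS with 7. DCTPP1, a dCTP pyrophosphatase, had 20.0 and 15.6 CPM against 23.1 and 15.2 CPM, with overlapping groups. In GENCODE 666 of its 1581 exon bases lie opposite exons of ZNF771. That gene had 343 to 586 counts, against 522 to 1002 for DCTPP1, so the DCTPP1 values are uncertain if the counting ignored strand. Exons of SAMHD1, GART, ADSL, TK2, DCK and AMPD2 also overlap those of other genes. For ADSL the overlap was 1344 of 7111 exon bases, with AL022238.4 on the same strand (102 to 263 counts). For GART it was 275 of 7751, opposite SON (10184 to 11909 counts). SAMHD1, the dNTP triphosphohydrolase, was below DMSO in both RB-BC libraries, at 52.7 and 62.5 CPM against 90.2 and 75.4 CPM (−0.52 ± 0.17, edgeR adjusted p = 0.0827). With DESeq2 it passed (adjusted p = 0.0443), and in edgeR it passed once DMSO 2 was left out (adjusted p = 0.0340), but in no other alternative.

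Promoter sequence is shown for genes of the set that passed the test and hold a match, so that the letters upstream of genes that moved together can be compared. The windows are the 250 bases upstream of each transcript start in RefSeq (GRCh38.p14), found for 34 of the 37 genes, with 56 windows in all since some genes have several starts. The following letters were searched on both strands, and matches of different kinds were counted separately: the CCAAT box (CCAAT), the MYC-type E-box (CACGTG) and E2F sites (TTTCCCGC, TTTGGCGC, TTTCGCGC or TTTGCCGC). The full RRM1 window, chr11:4094435-4094684 on the plus strand, follows with its CCAAT in capitals, 28 bases upstream of the start.
RRM1: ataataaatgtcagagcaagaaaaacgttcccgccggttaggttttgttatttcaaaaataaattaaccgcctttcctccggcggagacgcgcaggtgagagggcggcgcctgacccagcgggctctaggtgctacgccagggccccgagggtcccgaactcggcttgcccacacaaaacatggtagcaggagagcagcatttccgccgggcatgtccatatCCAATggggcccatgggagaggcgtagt

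RRM2 held 3 CCAAT boxes in the window of its downstream start, at 123, 93 and 66 bases before it, each followed by gggaaggg, and a further 1 at 249 bases before its other start. TK1 held 2 on the opposite strand, which read ATTGG on the strand of the gene, at 77 and 46 bases. TYMS held an E2F match on the opposite strand, GCGGGAAA, at 39 bases. Each line gives 30 bases on the strand of the gene with the match in capitals.
RRM2, 123 bases upstream, chr2:10122604-10122633, plus strand: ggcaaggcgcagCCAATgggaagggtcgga
RRM2, 93 bases upstream, chr2:10122634-10122663, plus strand: ggcatggcacagCCAATgggaagggccggg
RRM2, 66 bases upstream, chr2:10122661-10122690, plus strand: ggggcaccaaagCCAATgggaagggccggg
TK1, 77 bases upstream, chr17:78187112-78187141, minus strand: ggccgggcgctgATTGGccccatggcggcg
TK1, 46 bases upstream, chr17:78187081-78187110, minus strand: ggccggctcgtgATTGGccagcacgccgtg
TYMS, 39 bases upstream, chr18:657602-657631, plus strand: cgcgggacggccGCGGGAAAaggcgcgcgg

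Of the 8 genes that fell, 4 (RRM1, RRM2, CAD and TK1) held a CCAAT box, 1 (TYMS) an E2F match and 0 an E-box. Of 24 genes that did not pass and had a window, 7 held a CCAAT box, 3 an E2F match and 7 an E-box. Over all 56 windows of the set, 28.6% held a CCAAT box, 7.14% an E2F match and 12.5% an E-box. Among the 35116 windows of the RefSeq promoter table these shares were 32.0%, 2.79% and 6.34%. The counts are small, windows of the same gene overlap, and a match is a description of the letters only.

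Of the 6 pyrimidine synthesis genes, CAD, UMPS and CTPS1 fell and DHODH, CTPS2 and CMPK1 did not pass. CAD, the multifunctional protein of the first steps, stood at 148 and 131 CPM in DMSO and at 62.3 and 69.2 CPM in RB-BC, a 2.12-fold lower level (log2 fold change −1.08 ± 0.15, edgeR adjusted p = 0.0123). UMPS, which completes UMP, had 39.3 and 36.4 CPM against 20.1 and 22.4 CPM (−0.83 ± 0.15, edgeR adjusted p = 0.0217). CTPS1, a CTP synthase on which proliferating lymphocytes are known to depend, had 65.9 and 56.5 CPM against 28.8 and 32.6 CPM (−0.99 ± 0.16, edgeR adjusted p = 0.0162). For these 3 genes both RB-BC libraries lay well below both DMSO libraries. The related synthase CTPS2 overlapped between groups, at 30.9 and 26.3 CPM in DMSO and 25.3 and 27.4 CPM in RB-BC (−0.12 ± 0.16). CMPK1, the UMP and CMP kinase, also overlapped, at 102 and 79.4 CPM against 84.7 and 88.7 CPM (−0.07 ± 0.17). DHODH, the mitochondrial enzyme between CAD and UMPS, was at 9.00 and 11.1 CPM in DMSO and 7.01 and 8.35 CPM in RB-BC, and did not pass (−0.39 ± 0.21, edgeR adjusted p = 0.242). The CAD window held a CCAAT box on the opposite strand at its far end, shown with the match in capitals.
CAD, 250 bases upstream, chr2:27217119-27217148, plus strand: ATTGGtgttgttgcctataataaacacttt

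**Figure D2:**
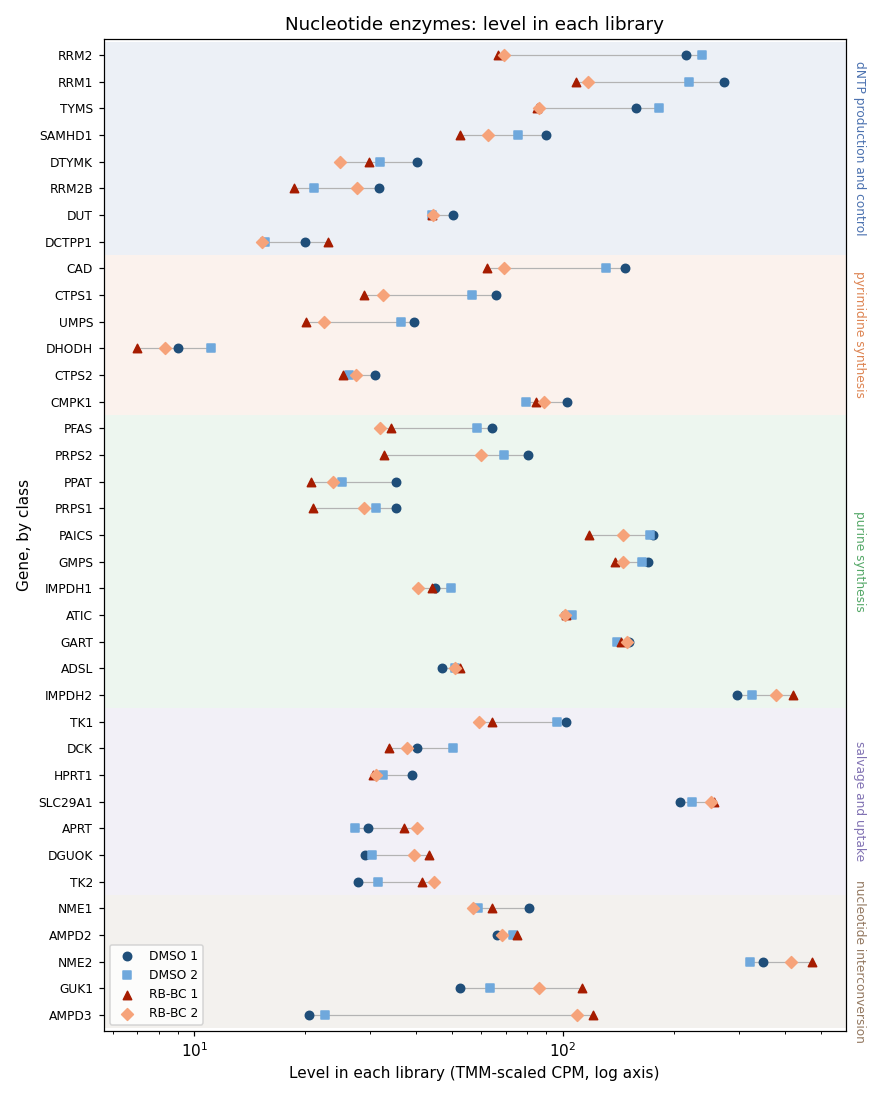
TMM-scaled CPM of all 37 genes (horizontal log axis) in each of the 4 libraries, with the genes grouped by class and a grey line from the lowest to the highest library. RRM2, RRM1, TYMS, CAD, CTPS1 and UMPS show the RB-BC points well to the left of the DMSO points, and AMPD3 shows them far to the right, at 120 and 109 CPM against 20.5 and 22.6 CPM.

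Among the 11 purine synthesis genes, PFAS was the only one past the threshold with all 4 libraries. PFAS, which converts FGAR to FGAM along the path to IMP, had 64.3 and 58.3 CPM in DMSO and 34.1 and 31.8 CPM in RB-BC, a 1.86-fold lower level (log2 fold change −0.89 ± 0.14, edgeR adjusted p = 0.0165). GART, ATIC and ADSL of the same path were close to level, whereas PAICS (−0.41) and PPAT (−0.43) were lower without passing. GART, which carries out several of the steps, had 151, 140, 144 and 149 CPM in DMSO 1, DMSO 2, RB-BC 1 and RB-BC 2. ATIC, of the last steps to IMP, had 101, 106, 102 and 101 CPM in that order, and ADSL, the adenylosuccinate lyase, 47.1, 50.8, 52.6 and 50.9 CPM. The log2 fold changes of GART, ATIC and ADSL lay between −0.03 and 0.08, each with an SE of 0.13 to 0.14.

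PPAT and PAICS encode, respectively, the committed step and a later bifunctional enzyme. PAICS stood at 176 and 172 CPM in DMSO and 118 and 145 CPM in RB-BC (−0.41 ± 0.16 at an edgeR adjusted p of 0.132). PPAT was at 35.2 and 25.1 CPM against 20.8 and 23.8 CPM (−0.43 ± 0.21), and its value was −0.17 once DMSO 1 was left out (edgeR adjusted p = 0.449). It was −0.66 once DMSO 2 was left out, the only alternative in which it passed (edgeR adjusted p = 0.0335). The PRPP synthetases, whose product feeds purine, pyrimidine and salvage routes, did not pass either. PRPS1 was at 35.2 and 31.2 CPM against 21.0 and 28.9 CPM (−0.41 ± 0.20). PRPS2 had 80.2 and 69.1 CPM against 32.6 and 59.8 CPM (−0.69 ± 0.29, edgeR adjusted p = 0.148), and its value ran from −0.32 without RB-BC 1 to −1.19 without RB-BC 2, so RB-BC 1 set much of it. For PAICS, PPAT and both PRPP synthetases the RB-BC libraries were below the DMSO libraries, as for 32.1% of all genes tested.

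The guanine branch pointed in both directions without passing. IMPDH2, the main IMP dehydrogenase of dividing cells, was at 297 and 325 CPM in DMSO and 422 and 379 CPM in RB-BC (0.36 ± 0.15 at an edgeR adjusted p of 0.144). IMPDH1 was at 45.0 and 49.6 CPM against 44.0 and 40.3 CPM (−0.17 ± 0.14), and GENCODE lists 7 pseudogenes named after it. GMPS, which aminates XMP to GMP, was at 169 and 164 CPM against 138 and 146 CPM (−0.23 ± 0.14, edgeR adjusted p = 0.278).

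In salvage, the thymidine kinases lay on opposite sides of no change, and the cytosolic one passed the test. TK1, the cytosolic kinase known to be made in S phase, had 102 and 96.6 CPM in DMSO and 64.1 and 59.2 CPM in RB-BC, a 1.61-fold lower level (log2 fold change −0.69 ± 0.14, edgeR adjusted p = 0.0273). TK2, the mitochondrial kinase, had 27.7 and 31.5 CPM against 41.5 and 44.7 CPM (0.54 ± 0.15, edgeR adjusted p = 0.0590). TK2 passed with DESeq2 (adjusted p = 0.0256) and, once DMSO 2 was left out, in edgeR (adjusted p = 0.0285), but in no other alternative. DGUOK, the mitochondrial deoxyguanosine kinase, had 28.9 and 30.4 CPM against 43.4 and 39.3 CPM (0.48 ± 0.14, edgeR adjusted p = 0.0732) and passed with DESeq2 alone (adjusted p = 0.0451). DCK, the cytosolic deoxycytidine kinase that also activates cytarabine and gemcitabine, had 40.1 and 50.3 CPM against 33.8 and 37.7 CPM (−0.34 ± 0.17). Of these 4 kinases TK1 alone passed with all 4 libraries in edgeR.

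Of the base salvage enzymes, APRT, which recovers adenine, had 29.5 and 27.2 CPM in DMSO and 36.9 and 40.1 CPM in RB-BC (0.44 ± 0.15 at an edgeR adjusted p of 0.0918). HPRT1, which recovers hypoxanthine and guanine, had 38.9 and 32.4 CPM against 30.6 and 31.0 CPM (−0.21 ± 0.16). SLC29A1, the equilibrative nucleoside transporter ENT1 through which nucleosides and nucleoside drugs enter, had 208 and 224 CPM against 256 and 252 CPM (0.24 ± 0.14, edgeR adjusted p = 0.276). None of these passed. The groups did not overlap for any of the 7 salvage genes, as for 65.2% of all genes tested.

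The largest change in the set was in AMPD3. AMP deaminases convert AMP to IMP, and AMPD3 is the form best known from red blood cells. Its level was 20.5 CPM in DMSO 1, 22.6 CPM in DMSO 2, 120 CPM in RB-BC 1 and 109 CPM in RB-BC 2, with a log2 fold change of 2.42 ± 0.15 (edgeR adjusted p = 0.00378). AMPD2, the form named for liver, was flat at 66.0 and 73.3 CPM in DMSO and 74.8 and 68.3 CPM in RB-BC (0.04 ± 0.14). Per kilobase of GENCODE exon the means were 3.17 and 10.2 CPM for AMPD3 and AMPD2 in DMSO and 16.9 and 10.5 CPM in RB-BC, so that their order was turned. AMPD3 has 4 starts in the RefSeq windows. The windows of 2 of them held a CCAAT box, shown here in capitals and on the opposite strand in the upper line.
AMPD3, 201 bases upstream, chr11:10455051-10455080, plus strand: cacaacctcacgATTGGacatgcggaggtg
AMPD3, 188 bases upstream, chr11:10455856-10455885, plus strand: ctgtacctgagaCCAATccccttgataaaa

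GUK1, the guanylate kinase that carries GMP and dGMP to their diphosphates, also rose. Its levels were 52.7 and 63.2 CPM in DMSO and 112 and 86.3 CPM in RB-BC, a 1.71-fold higher level (log2 fold change 0.78 ± 0.19, edgeR adjusted p = 0.0427). It was the weakest of the 10 calls by adjusted p. The nucleoside diphosphate kinase genes NME1 and NME2, which make triphosphates of all bases, did not pass. NME2 had 350 and 321 CPM against 473 and 415 CPM (0.41 ± 0.15, edgeR adjusted p = 0.121), and NME1 had 80.7 and 58.7 CPM against 64.2 and 57.1 CPM (−0.20 ± 0.19). Both share exons with the annotated read-through gene NME1-NME2, which had 961 and 1167 counts in DMSO and 1851 and 1534 counts in RB-BC. No source used here states how reads were divided among the 3 genes, so the values of NME1 and NME2 are uncertain.

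**Figure D3:**
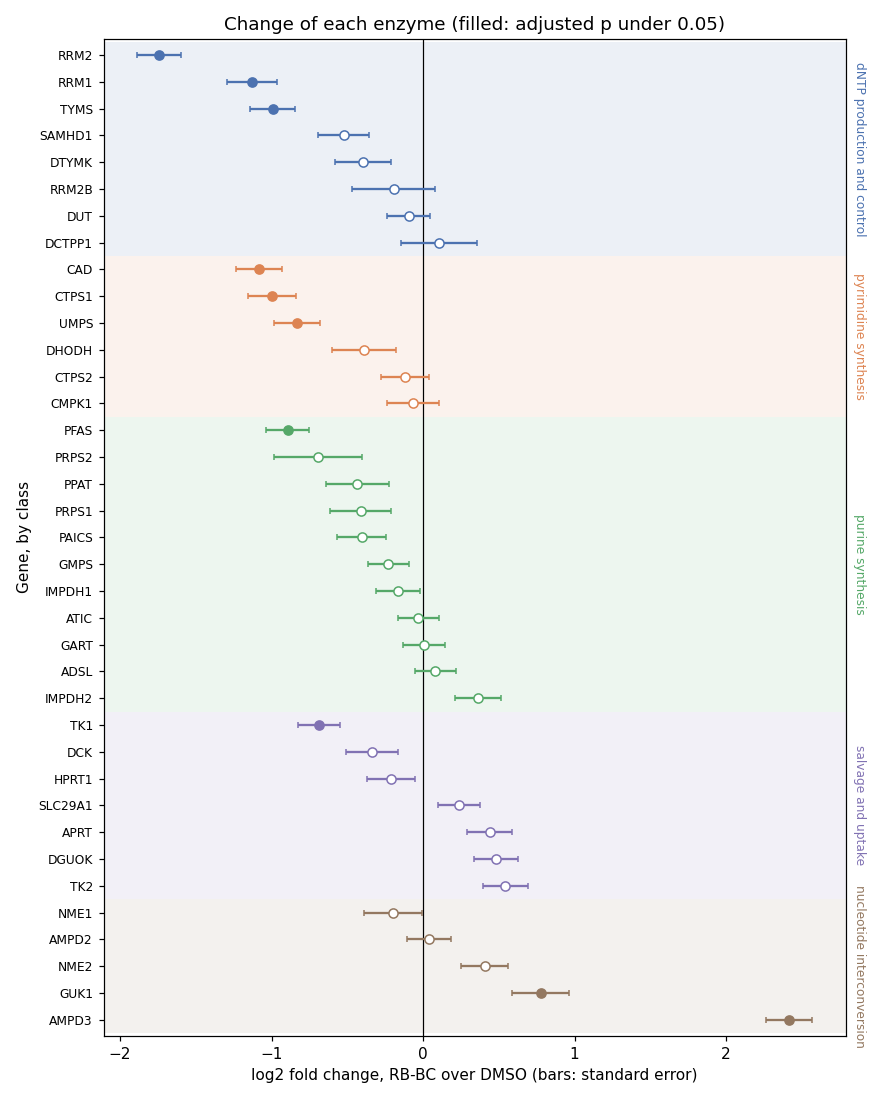
The log2 fold change, RB-BC over DMSO (horizontal axis), of each of the 37 genes by class, with bars for the standard error and filled points for an edgeR adjusted p under 0.05. The 8 filled points on the left run from −1.74 for RRM2 to −0.69 for TK1, and the 2 on the right are GUK1 at 0.78 and AMPD3 at 2.42.

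Related enzymes were also set against each other inside each library, where the scaling between libraries cancels. Gene lengths differ, so only the change of a ratio is read. The ratio of TK1 to TK2 counts was 3.69 and 3.07 in DMSO and 1.54 and 1.32 in RB-BC. That of CTPS1 to CTPS2 was 2.13 and 2.15 against 1.14 and 1.19, and that of DCK to DGUOK was 1.39 and 1.65 against 0.779 and 0.959. As log2 means, the ratio changed by −1.55 for RRM2 to RRM2B, −1.23 for TK1 to TK2, −0.88 for CTPS1 to CTPS2 and −0.81 for DCK to DGUOK. The ratio of IMPDH1 to IMPDH2 changed by −0.53, that of NME1 to NME2 by −0.59 and that of PRPS1 to PRPS2 by 0.33. The groups did not overlap for any of the 7 pairs. They also did not overlap for 65.2% of all genes tested, taken singly, and no such share was computed for pairs. The ratio of PRPS1 to PRPS2 was only narrowly apart, at 0.439 and 0.451 in DMSO against 0.644 and 0.484 in RB-BC. The ratio was lower in RB-BC for RRM2 and TK1, known from S phase, over their counterparts. It was also lower for IMPDH1 over IMPDH2, the form of dividing cells, and neither of these genes passed alone. What sets the direction was not tested. With 2 libraries against 2 the smallest two-sided p of an exact permutation test is 0.333, and single ratios were therefore given without a p.

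**Figure D4:**
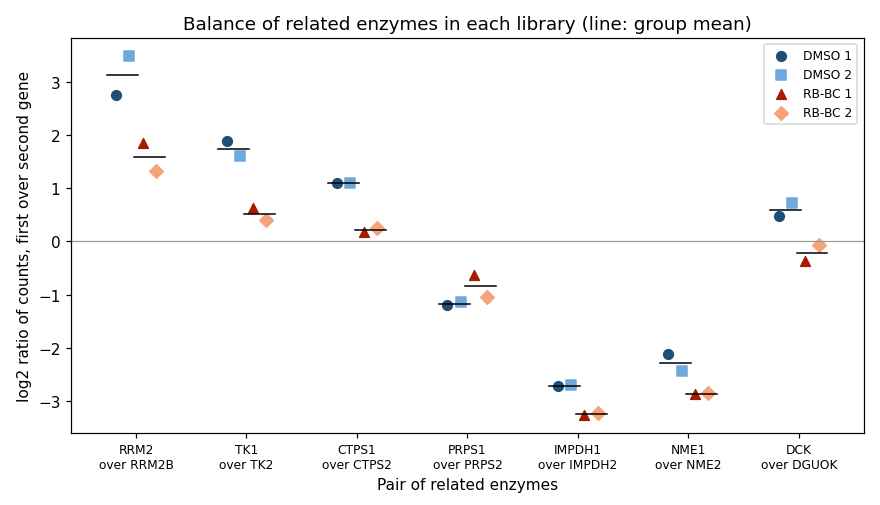
The log2 ratio of counts of 7 pairs of related enzymes (vertical axis) in each of the 4 libraries, with a line at each group mean. The RRM2 to RRM2B mean drops from 3.13 in DMSO to 1.58 in RB-BC and the TK1 to TK2 mean from 1.75 to 0.51, while the PRPS1 to PRPS2 mean goes the other way, from −1.17 to −0.84.

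Per kilobase of annotated exon, which allows genes to be ranked within a group, NME2 (127 CPM) and IMPDH2 (112 CPM) led in DMSO. TYMS (68.8 CPM), RRM1 (58.9 CPM), TK1 (53.4 CPM), SLC29A1 (48.9 CPM) and RRM2 (42.6 CPM) followed. TYMS and RRM1 changed places between the DMSO libraries, at 63.9 and 65.2 CPM in DMSO 1 and 73.7 and 52.7 CPM in DMSO 2. In RB-BC the order was led by NME2 (169 CPM), IMPDH2 (144 CPM), SLC29A1 (57.6 CPM), TYMS (34.6 CPM), TK1 (33.1 CPM), DGUOK (28.4 CPM) and RRM1 (27.0 CPM). RRM2, at 12.8 CPM, came further down, below ATIC, CMPK1, APRT and GUK1 among others. TYMS and TK1 changed places between the RB-BC libraries, as did DGUOK and RRM1. DHODH was at the foot of the order in both groups, at 1.45 and 1.11 CPM. Exon lengths count every annotated isoform and may overstate the length of the transcript in these cells.

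A further 48 genes of nucleotide metabolism outside the set gave 3 falls and 6 rises among the 45 that could be tested, or 6.67% and 13.3%, against 7.53% and 8.58% of all genes. The share called, 20.0%, was thus near the 16.1% of all genes. SHMT1, a serine hydroxymethyltransferase of folate metabolism named here after its value was seen, was among those that fell, at a log2 fold change of −0.63 ± 0.15 (edgeR adjusted p = 0.0381). SHMT1 lost its call under the replicate block (edgeR adjusted p = 0.0595) and with library totals alone (0.126), and GMPR and NT5C, given here among the rises, did not pass with library totals alone either (0.0567 and 0.0628). All calls of this list were lost without RB-BC 1, where 44 genes could be tested, and nearly all without RB-BC 2. Most calls over all genes were lost in these fits as well. The median log2 fold change of the list was 0.059 without RB-BC 1 and 0.17 without RB-BC 2. UPP1, which splits uridine to uracil, had 33.2 and 38.3 CPM against 81.8 and 74.1 CPM (1.12 ± 0.15, edgeR adjusted p = 0.0115). The nucleotidase genes NT5M (1.63 ± 0.30) and NT5C (0.81 ± 0.17), the adenosine deaminase gene ADA (1.47 ± 0.31), the GMP reductase gene GMPR (0.94 ± 0.17) and the adenylate kinase gene AK5 (1.50 ± 0.23) also rose. ADA, AK5 and NT5M were low, at 1.12 to 2.39 CPM in DMSO. MTAP, CMPK2 and GDA had no count in any library, where 3 counts would be 0.0701 to 0.0863 CPM. The median of the 45 was 0.10.

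Proliferation markers moved with the enzymes that fell. Of 15 such markers 13 fell (86.7%) and 0 rose, against 7.53% and 8.58% of all genes tested. All of these calls were lost without RB-BC 1 and most without RB-BC 2. The median log2 fold change of the markers was −0.99 and −1.09 in these fits, against −1.07 with all libraries. The markers' summed CPM, here relative to the plain library total, was 4641 and 3797 in DMSO 1 and DMSO 2. It was 1882 and 1980 in RB-BC 1 and RB-BC 2. MKI67 went from 1361 and 1491 CPM to 481 and 507 CPM (−1.53 ± 0.16, edgeR adjusted p = 0.00819). PCNA, the sliding clamp of replication, went from 215 and 215 CPM to 101 and 108 CPM (−1.04 ± 0.14). Without RB-BC 1 the values were −1.49 for MKI67 and −0.99 for PCNA, and without RB-BC 2 they were −1.57 and −1.09. The markers' part in the change of the enzymes was not tested. In bulk RNA fewer cells in S phase and less RNA of these genes per cell cannot be told apart.

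RRM2 and AMPD3 passed in every one of the 12 alternative fits. The other 8 calls were lost without RB-BC 1 and again without RB-BC 2, where 205 and 450 of all genes passed (1.47% and 3.23%) against 2214 with all libraries, and their signs did not change in any of these fits. Without RB-BC 1 the values of these 8 ran from −1.07 for RRM1 to 0.58 for GUK1, and without RB-BC 2 from −1.18 for RRM1 to 0.96 for GUK1. GUK1 was lost without DMSO 1 as well (0.65, edgeR adjusted p = 0.0702). With library totals alone as the scaling, UMPS, CTPS1, PFAS and TK1 did not pass (edgeR adjusted p = 0.0745, 0.0517, 0.0570 and 0.0959). Removing the mitochondrially encoded genes, whose share was high in DMSO 2, left 8 members lower and 2 higher. The share of all genes that passed, against which these counts stand, was 8.77% with library totals alone, 23.4% with DESeq2, 16.4% without mitochondrially encoded genes, 23.1% without DMSO 1 and 26.0% without DMSO 2. It was 16.1% with RLE size factors, 13.0% without the low-count filter, 18.1% for genes with a mean of at least 50 counts, 16.6% with limma-voom and 15.4% with a replicate block.

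**Figure D5:**
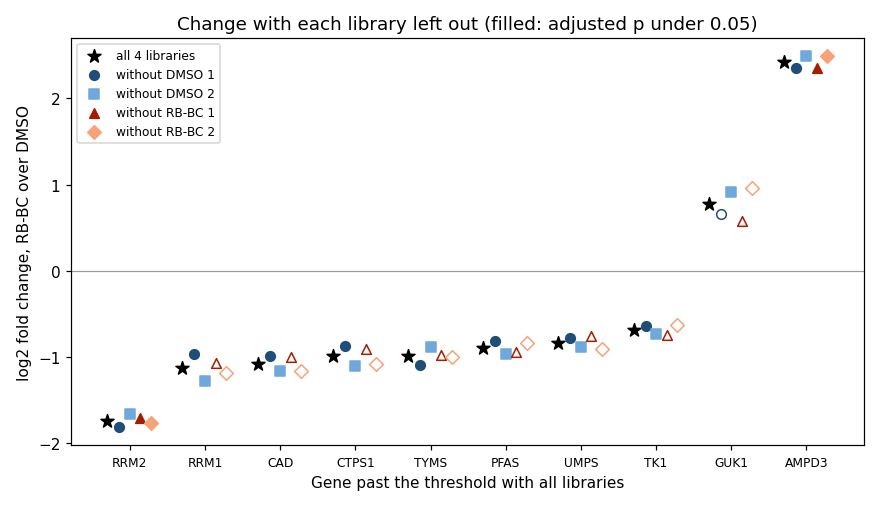
The log2 fold change, RB-BC over DMSO (vertical axis), of the 10 genes past the threshold, with all 4 libraries (star) and with each library left out in turn. Symbols are filled where the edgeR adjusted p is under 0.05, and RRM2 and AMPD3 are filled throughout, AMPD3 between 2.35 and 2.49.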

How the data were processed

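RNA of 4 libraries, 2 with DMSO and 2 with RB-BC, was sequenced from 1.4 µg of total RNA with an mRNA library kit, per the labels' protocols. The authors deposited whole-number read counts per Ensembl gene, which the values show to be without normalization. No source used here states the aligner, counter, strand setting or annotation. The submitters' processing notes list GRCm38 and mm10, mouse builds, although all 20263 identifiers are human. Promoter coordinates are therefore those of the RefSeq table (GRCh38.p14) and not of the counting. Groups and replicate numbers came from the sample titles.

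The counts were tested in edgeR 4.0.16 (R 4.3.3): filterByExpr (minimum count 10, minimum total 15), TMM, quasi-likelihood test, two-sided, Benjamini-Hochberg over 13744 genes, threshold 0.05. The SE is the log2 fold change divided by the root of the F statistic. The scripts were tested on simulated data. DESeq2 1.42.0, limma-voom (limma 3.58.1), other scalings and filters, a replicate block and leaving out each library were alternatives. Replicate libraries were not duplicates of each other (their counts gave a chi-square of 246 per degree of freedom in the DMSO pair and 38.8 in the RB-BC pair). Exon lengths, overlaps and pseudogenes came from GENCODE release 29. Named were all members, the 8 other nucleotide genes of smallest adjusted p and a further fixed gene, and MKI67 and PCNA; some of the other nucleotide genes are not reported here. The members and lists were chosen with earlier results of these data known.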

Additional observations from a re-analysis of the deposited data

How the results depend on the processing

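Over 12 alternatives, 1205 genes in all passed with library totals alone, against 2214. With that scaling 4 members were lower, and 1 pyrimidine, 0 purine, 0 salvage and 5 other nucleotide genes were called, while ATIC turned from −0.030 to 0.022. With DESeq2 4 members were higher and 3 salvage genes called. RLE, both filters, limma-voom and removal of mitochondrially encoded genes changed no member call. With each library left out, all calls ran from 205 to 3648, members lower from 1 to 10 and members higher from 1 to 3. By class the calls ran from 1 to 4 for dNTP, 0 to 3 for pyrimidine, 0 to 2 for purine, 0 to 2 for salvage and 1 to 2 for interconversion genes, and from 0 to 15 for other nucleotide genes. In these fits the lone library is assumed to vary like the other group's pair. Members that did not pass and changed sign there were RRM2B (−0.51 to 0.13), DUT (−0.19 to 0.0019), DCTPP1 (−0.22 to 0.38), CTPS2 (−0.23 to 0.0049), CMPK1 (−0.24 to 0.13), GART (−0.049 to 0.068), ATIC (−0.060 to 0.00090), AMPD2 (−0.035 to 0.12) and NME1 (−0.41 to 0.048). The cause was not tested. The replicate number does not pair the libraries by any label, and same-numbered libraries did not deviate together (correlation of deviations −0.034 across genes). With the replicate block 2114 genes passed in all, with 8 members lower and 2 higher, and no member call changed.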
